A study of Gallus gallus with 17 samples.

Results

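Tumour necrosis factor (TNF) receptors and the death receptor FAS were described in chicken adipose tissue through every probe set that the platform annotation gives to TNFRSF1A, TNFRSF1B, FAS, TNFRSF11B or TNFRSF21. That rule returned 9 probe sets of 5 genes out of 37693 chicken probe sets, of which 27166 carry a single symbol and stand for 13008 genes. TNFRSF1B has 4 of them, FAS has 2, and TNFRSF1A, TNFRSF21 and TNFRSF11B have 1 each. Each probe set sums several short probes aimed at the same stretch of RNA. The genes were chosen by the large Fayoumi against broiler difference of a TNFRSF1B probe set, so the members' values in that comparison are given as a description, with no test. Probe sets of a gene are told apart by their Affymetrix endings. TNFRSF1B has S1_at, S1_s_at and S2_s_at of one design cluster and GgaAffx S1_at of another, and FAS has S1_a_at and S1_at.

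Adipose RNA of 3-week-old male chickens was hybridised to 17 Affymetrix arrays, 1 per sample. The groups were 6 samples of a broiler, a type bred for fast growth, 5 of the inbred line named Fayoumi M 5.1 in the labels and 6 of the line named Leghorn GHs 13, with no treatment in any of them. The study set out to find pathways that go with leanness. Labels call samples of a line biological replicates without naming the fat depot or saying whether birds were pooled, so the tests reflect only how much these samples vary.

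TNF is a cytokine of inflammation that in mammals also restrains fat storage and insulin action in adipocytes. It is read by 2 receptors on the cell surface. TNFRSF1A is found on most cells and carries a death domain, the segment that recruits adaptor proteins for NF-kappaB signalling or for cell death, whereas TNFRSF1B lacks one, recruits TRAF proteins directly and is known mainly from leukocytes and endothelium. FAS is the receptor of FAS ligand and starts apoptosis through FADD and caspase 8. TNFRSF21, or death receptor 6, has a death domain as well. TNFRSF11B, osteoprotegerin, is secreted and acts as a decoy for the ligands TNFSF11 and TNFSF10.

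The labels of the arrays were checked on probe sets other than the members. All 8 adipocyte markers measured, among them ADIPOQ, FABP4, PLIN1 and LPL, were above background on every array, where background is 2.29 on the log2 scale. Over probe sets without overlap that separate the other broiler and Leghorn arrays by more than 2 on the log2 scale, members left out, a position of 0 stands for broiler and 1 for Leghorn. For the arrays labelled broiler 1 and Leghorn 2 these were 69 probe sets higher in Leghorn and 91 higher in broiler. Both arrays had been singled out beforehand, with earlier results of these data known, and were left out of the reference arrays for every position. The array labelled broiler 1 had a position of 1.01, and the one labelled Leghorn 2 had 0.102, while the other 5 broiler arrays lay between -0.0045 and 0.136 and the other 5 Leghorn arrays between 0.814 and 0.994. These arrays go against their labels, and results are given with all arrays as labelled and without these 2. A further 5 arrays, labelled broiler 2, 3 and 4 and Leghorn 3 and 6, stood apart on a first principal component that carried 52.9% of the variance. They scored from 0.210 to 0.477 on it, against -0.191 to -0.125 on the other 12, again with the members left out.

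TNFRSF1B gave different pictures at its 4 probe sets. At S1_at, which the annotation ties to the RefSeq transcript of the gene, the 6 broiler arrays stood at 3.97, 7.32, 7.48, 7.43, 8.63 and 8.71 on the log2 scale, in the order of their labels. The Leghorn arrays stood at 2.69, 8.78, 3.42, 3.99, 4.51 and 3.78, and the Fayoumi arrays at 2.26, 2.63, 2.56, 2.57 and 2.51. All 5 Fayoumi arrays lay below every other array, and 4 of the 5 were still above background. The gap to Leghorn was narrow, with Fayoumi 2 at 2.63 and Leghorn 1 at 2.69. The share of all chicken probe sets with Fayoumi below all other arrays is not given, and these values entered the choice of the gene. Nothing is therefore read from this lack of overlap. Broiler and Leghorn overlapped only through the arrays labelled broiler 1, at 3.97, and Leghorn 2, at 8.78, which are the 2 whose position lay with the other line. In tissue samples, fewer cells of a type and less RNA per cell cannot be told apart. Fayoumi minus broiler was -0.40 at S1_s_at, 1.08 at S2_s_at and 0.73 at GgaAffx S1_at. The S1_at values are therefore read as those of 1 probe set and not as the level of the gene. Why the probe sets of the gene differ was not tested.

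Means at S1_at were 2.51 ± 0.15 (SD, n = 5) for Fayoumi, 4.53 ± 2.17 (SD, n = 6) for Leghorn and 7.25 ± 1.72 (SD, n = 6) for broiler. Fayoumi minus broiler was -4.75 on the log2 scale (SE 0.99) and Fayoumi minus Leghorn was -2.02 (SE 0.99). Because the Fayoumi values lie close to the lowest value in the table, both differences are compressed. The Leghorn minus broiler difference of -2.72 (SE 0.94), which shares the broiler arrays with the choice of the gene, did not pass (limma, adjusted p = 0.852). With the arrays labelled broiler 1 and Leghorn 2 left out, the broiler mean was 7.91 ± 0.69 (SD, n = 5) and the Leghorn mean 3.68 ± 0.68 (SD, n = 5). That difference of -4.23 (SE 0.35), an 18.8-fold lower level in Leghorn, passed (limma, adjusted p = 3.57e-05). This fit is 1 of 27 alternatives to the fit as labelled, over which limma adjusted p ran from 3.57e-05 to 1.0. The broiler arrays of this difference also entered the choice of the gene, so nothing is read from this pass. Without these 2 arrays Fayoumi was 1.17 below Leghorn on the log2 scale and 5.41 below broiler.

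**Figure D1:**
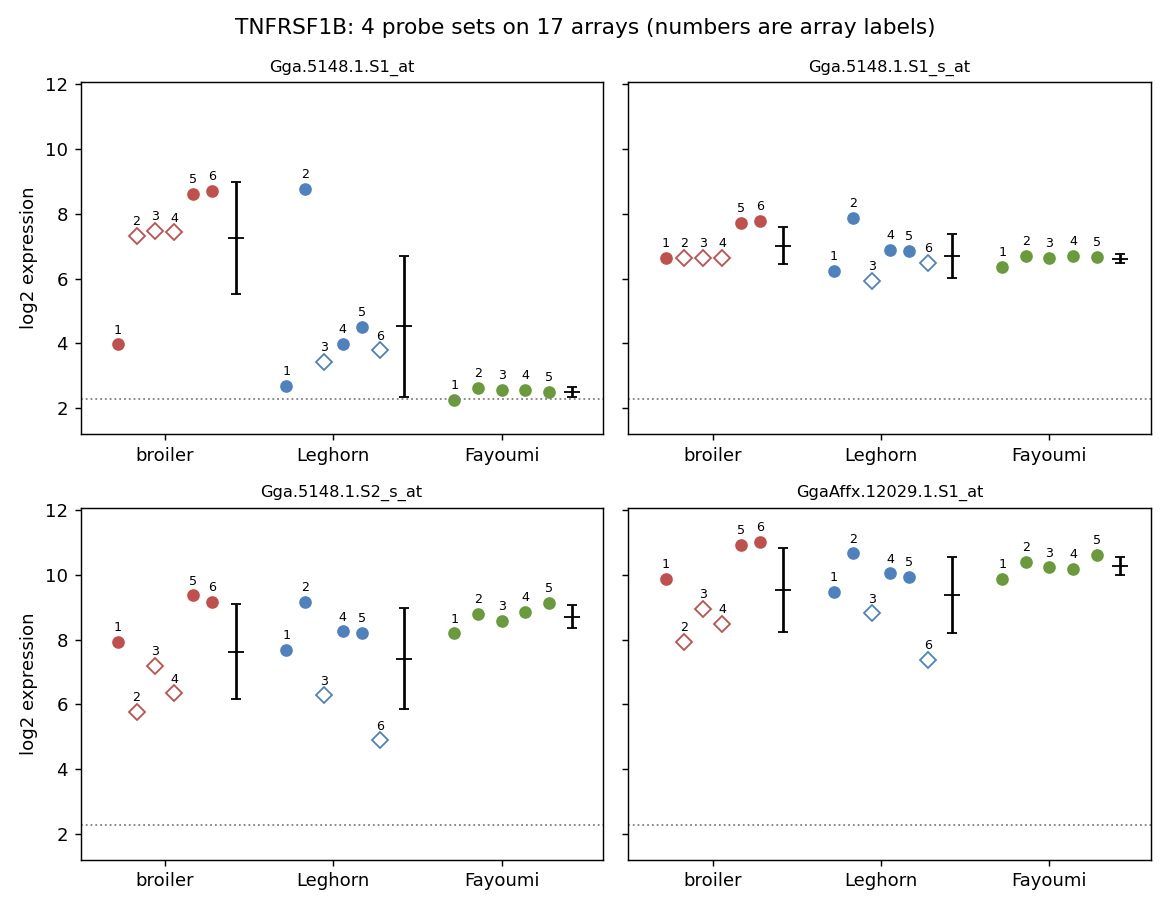
Log2 expression (vertical axis) of the 4 TNFRSF1B probe sets on each array of the 3 lines, with array labels as numbers, open diamonds for the 5 arrays that stood apart, bars for mean ± SD and a dotted line for background at 2.29. At S1_at all Fayoumi points lie below all others, though close to Leghorn 1 at 2.69, and broiler 1 and Leghorn 2 lie among the other line. The lower panels separate open diamonds from filled points instead of lines.

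The other probe sets of TNFRSF1B separated the lines less or not at all. S1_s_at, tied to the same transcript, had means of 6.62 ± 0.15 (SD, n = 5) for Fayoumi, 6.72 ± 0.68 (SD, n = 6) for Leghorn and 7.02 ± 0.57 (SD, n = 6) for broiler, the same order of means as at S1_at over a narrower range. On 5 arrays, broiler 1 to 4 and Fayoumi 3, its value was the same to within 0.001, at 6.65. Its 3 highest values were 7.88 on the array labelled Leghorn 2, 7.78 on broiler 6 and 7.72 on broiler 5, the same 3 arrays that were highest at S1_at. Leghorn minus broiler was -0.30 (SE 0.31) and did not pass (limma, adjusted p = 0.874). Without both the 2 arrays against their labels and the 5 that stood apart, which leaves broiler 5 and 6, Leghorn 1, 4 and 5 and all Fayoumi arrays, it was -1.09 (SE 0.20, limma, adjusted p = 0.0486). That was the smallest adjusted p over the 27 alternatives to the fit as labelled. The broiler arrays of this difference also entered the choice of the gene, so nothing is read from this pass.

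At S2_s_at the lowest, median and highest values were 5.77, 7.57 and 9.36 in broiler and 4.89, 7.95 and 9.16 in Leghorn. The 5 Fayoumi arrays, at 8.19, 8.79, 8.59, 8.86 and 9.12, lay inside the broiler range. GgaAffx S1_at ran from 7.92 to 11.01 in broiler, from 7.36 to 10.66 in Leghorn and from 9.86 to 10.62 in Fayoumi, so that the lines overlapped there too. Fayoumi minus broiler was 1.08 (SE 0.77) at S2_s_at and 0.73 (SE 0.63) at GgaAffx S1_at, opposite in sign to the difference at S1_at. Leghorn minus broiler did not pass at either, at -0.22 (SE 0.74, limma, adjusted p = 1.0) and -0.15 (SE 0.60, limma, adjusted p = 1.0).

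Both of these probe sets divided the arrays that stood apart from the rest. S2_s_at was at 4.89 to 7.20 on those 5 arrays and at 7.68 to 9.36 on the other 12, with no overlap. GgaAffx S1_at was at 7.36 to 8.95 on the 5 and at 9.46 to 11.01 on the 12. Within broiler alone, S2_s_at had a mean of 6.44 on the 3 arrays that stood apart and 8.82 on the other 3, and within Leghorn 5.58 on 2 and 8.33 on 4. No Fayoumi array was among the 5. Without them, Fayoumi minus broiler went from 1.08 to -0.11 at S2_s_at and from 0.73 to -0.34 at GgaAffx S1_at.

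TNFRSF1A, the receptor with the death domain, differed little between lines with the arrays as labelled. Its only probe set had a lowest, median and highest value of 11.64, 12.04 and 12.44 in broiler and 11.22, 11.71 and 12.61 in Leghorn. The Fayoumi arrays were at 12.24, 11.98, 11.83, 11.75 and 12.18, within the range of both other lines. Leghorn minus broiler was -0.17 (SE 0.24, limma, adjusted p = 0.988), Fayoumi minus Leghorn was 0.12 (SE 0.25, limma, adjusted p = 1.0) and Fayoumi minus broiler was -0.05 (SE 0.25). The arrays that stood apart were higher, at 12.34 to 12.61, than the other 12, at 11.22 to 12.24. TNFRSF1A therefore ran opposite to the TNFRSF1B probe sets S2_s_at and GgaAffx S1_at on these arrays.

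FAS was lower on the arrays that stood apart at its probe set S1_a_at, where the range over all arrays was the widest among the members after S1_at. Broiler arrays were at 9.34, 5.22, 6.85, 5.46, 8.88 and 9.24 in label order. Leghorn arrays were at 9.30, 8.80, 7.17, 9.71, 9.90 and 5.55, and Fayoumi arrays at 9.08, 9.31, 9.04, 8.98 and 9.48. Every array under 8 was one of the 5, with levels from 5.22 to 7.17 against 8.80 to 9.90 on the other 12, a mean difference of -3.20 on the log2 scale. As labelled, Fayoumi minus broiler was 1.68 (SE 0.92), and without the 5 arrays it was 0.02 (SE 0.24). Leghorn minus broiler was 0.91 (SE 0.87, limma, adjusted p = 0.860), and Fayoumi minus Leghorn 0.77 (SE 0.92, limma, adjusted p = 0.896), which turned to -0.25 without the 5 arrays (limma, adjusted p = 0.827).

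**Figure D2:**
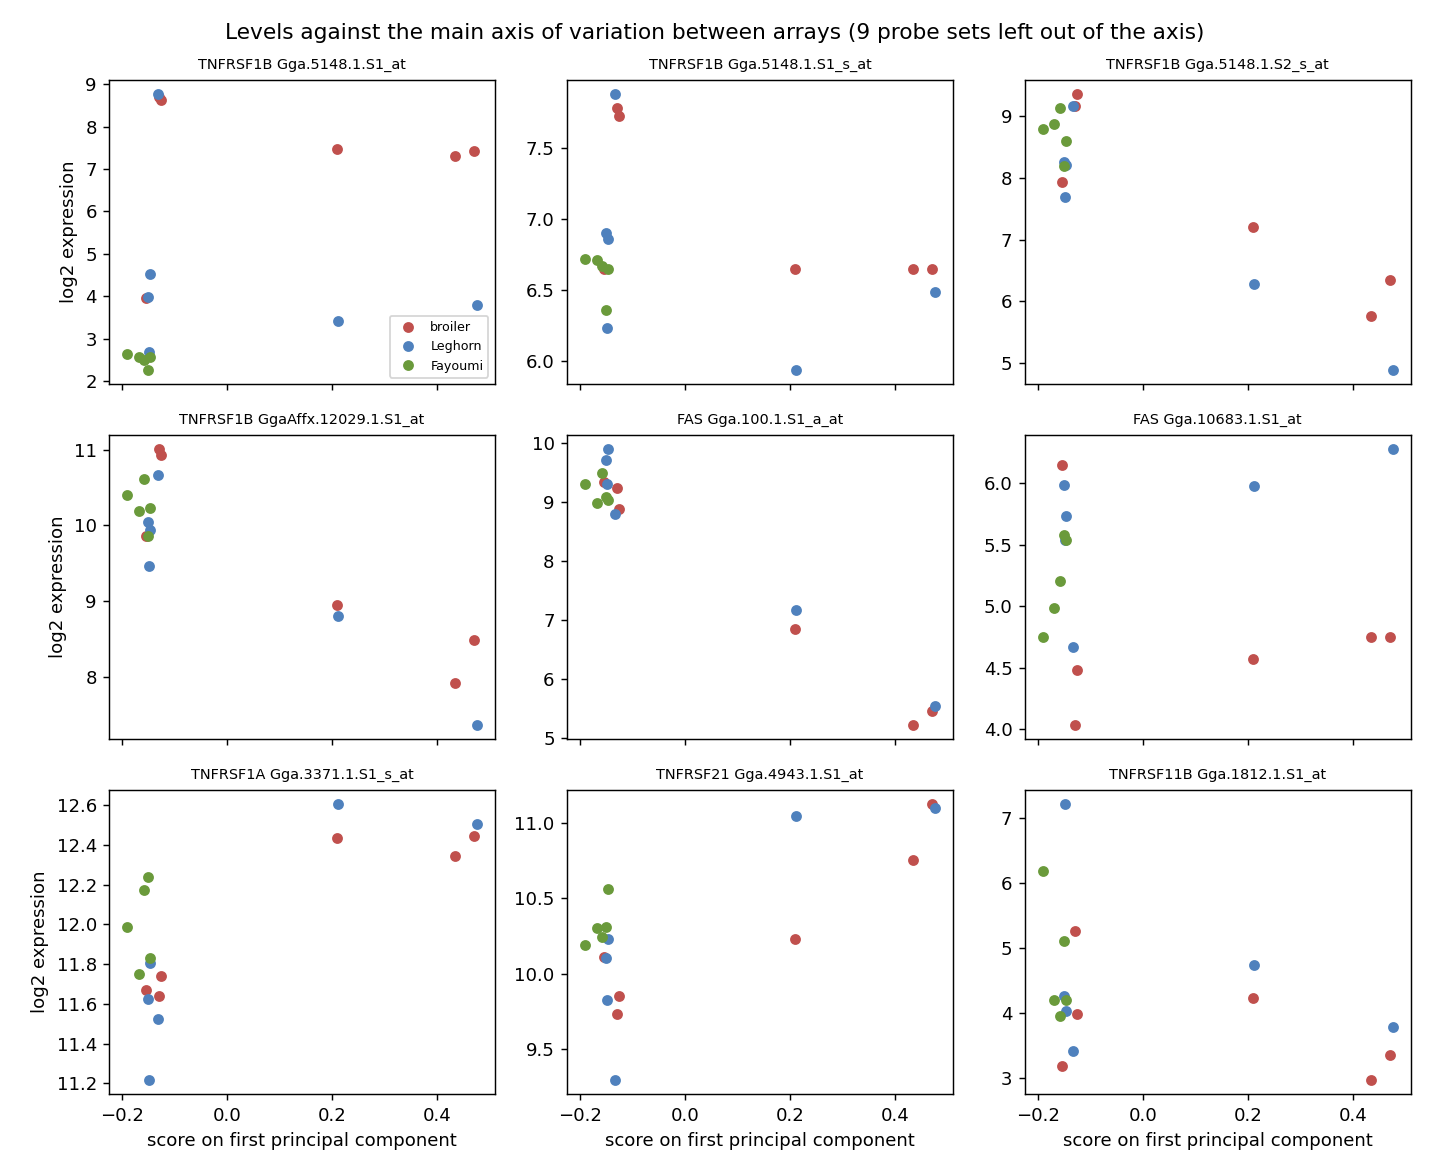
Log2 expression of each of the 9 probe sets (vertical axis, own scale per panel) against the score of the array on the first principal component (horizontal axis, no unit), 1 point per array and a colour per line. The 5 arrays with scores of 0.210 and above have the lowest values of FAS S1_a_at and of TNFRSF1B S2_s_at and GgaAffx S1_at and the highest values of TNFRSF1A.

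The second FAS probe set, FAS S1_at, differed between broiler and Leghorn once the 2 arrays against their labels were left out. Broiler arrays were at 6.15, 4.75, 4.57, 4.75, 4.48 and 4.03, and Leghorn arrays at 5.54, 4.67, 5.98, 5.99, 5.73 and 6.28. Fayoumi arrays, at 5.58, 4.75, 5.53, 4.99 and 5.20, lay within the range of both other lines as labelled. Without the arrays labelled broiler 1 and Leghorn 2, broiler ran from 4.03 to 4.75 and Leghorn from 5.54 to 6.28. Fayoumi then lay mostly between them, touching the top of broiler and overlapping the low end of Leghorn. The array labelled broiler 1 was above all other broiler arrays and the one labelled Leghorn 2 below all other Leghorn arrays, as at S1_at but in the opposite direction. Leghorn minus broiler was 0.91 (SE 0.33) as labelled and did not pass (limma, adjusted p = 0.852). Without these 2 arrays the Leghorn mean was 5.90 ± 0.28 (SD, n = 5) and the broiler mean 4.52 ± 0.29 (SD, n = 5), with all 5 Leghorn arrays above all 5 broiler arrays. The difference was then 1.39 (SE 0.19), 2.61-fold, and passed (limma, adjusted p = 0.00235). This fit is 1 of 27 alternatives to the fit as labelled, over which limma adjusted p ran from 0.00235 to 1.0. Without the 5 arrays that stood apart as well as these 2, the difference was 1.49 (SE 0.28) and missed the threshold (limma, adjusted p = 0.0502). Fayoumi minus Leghorn was -0.49 as labelled (SE 0.34, limma, adjusted p = 0.802) and -0.69 without the 2 arrays (SE 0.19, limma, adjusted p = 0.137), and did not pass in either case.

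TNFRSF21, the other death receptor, was at 10.11, 10.76, 10.23, 11.13, 9.85 and 9.73 on the broiler arrays. It was at 9.82, 9.29, 11.05, 10.10, 10.23 and 11.10 on the Leghorn arrays and, in a narrow band, at 10.31, 10.19, 10.56, 10.30 and 10.24 on the Fayoumi arrays. The lines overlapped with the arrays as labelled. Leghorn minus broiler was -0.04 (SE 0.30, limma, adjusted p = 1.0) and Fayoumi minus Leghorn 0.06 (SE 0.32, limma, adjusted p = 1.0). On the arrays that stood apart the level was 10.23 to 11.13, and on the other 12 it was 9.29 to 10.56, an overlap that came from the array labelled broiler 3, the lowest of the 5. Without those 5 arrays, broiler ran from 9.73 to 10.11, below all Fayoumi arrays, and Leghorn from 9.29 to 10.23. Means were then 10.32 in Fayoumi, 9.86 in Leghorn and 9.90 in broiler. The 3 broiler arrays left include the one labelled broiler 1, whose position lay with Leghorn. The share of all chicken probe sets with broiler below all Fayoumi arrays is not given. Nothing is therefore read from this lack of overlap.

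TNFRSF11B, the secreted decoy, had low and scattered values above background on all arrays. The lowest, median and highest were 2.97, 3.68 and 5.27 in broiler and 3.42, 4.15 and 7.21 in Leghorn, and the Fayoumi arrays were at 5.10, 6.18, 4.20, 4.21 and 3.95. The high Leghorn value belonged to the array labelled Leghorn 1 and the high Fayoumi value to Fayoumi 2. Those arrays also held the highest summed level of 7 skeletal muscle markers in their line, 17.6 and 13.6 on the log2 scale against 7.29 to 12.5 on the other 15. In broiler the highest muscle sum, 12.1 on broiler 2, went with the lowest TNFRSF11B value of all arrays, 2.97, and Fayoumi 3 had a sum of 12.5 with TNFRSF11B at 4.20. The part of muscle tissue in the TNFRSF11B values was not tested. Leghorn minus broiler was 0.74 (SE 0.62, limma, adjusted p = 0.852), Fayoumi minus Leghorn 0.15 (SE 0.65, limma, adjusted p = 1.0) and Fayoumi minus broiler 0.89 (SE 0.65).

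**Figure D3:**
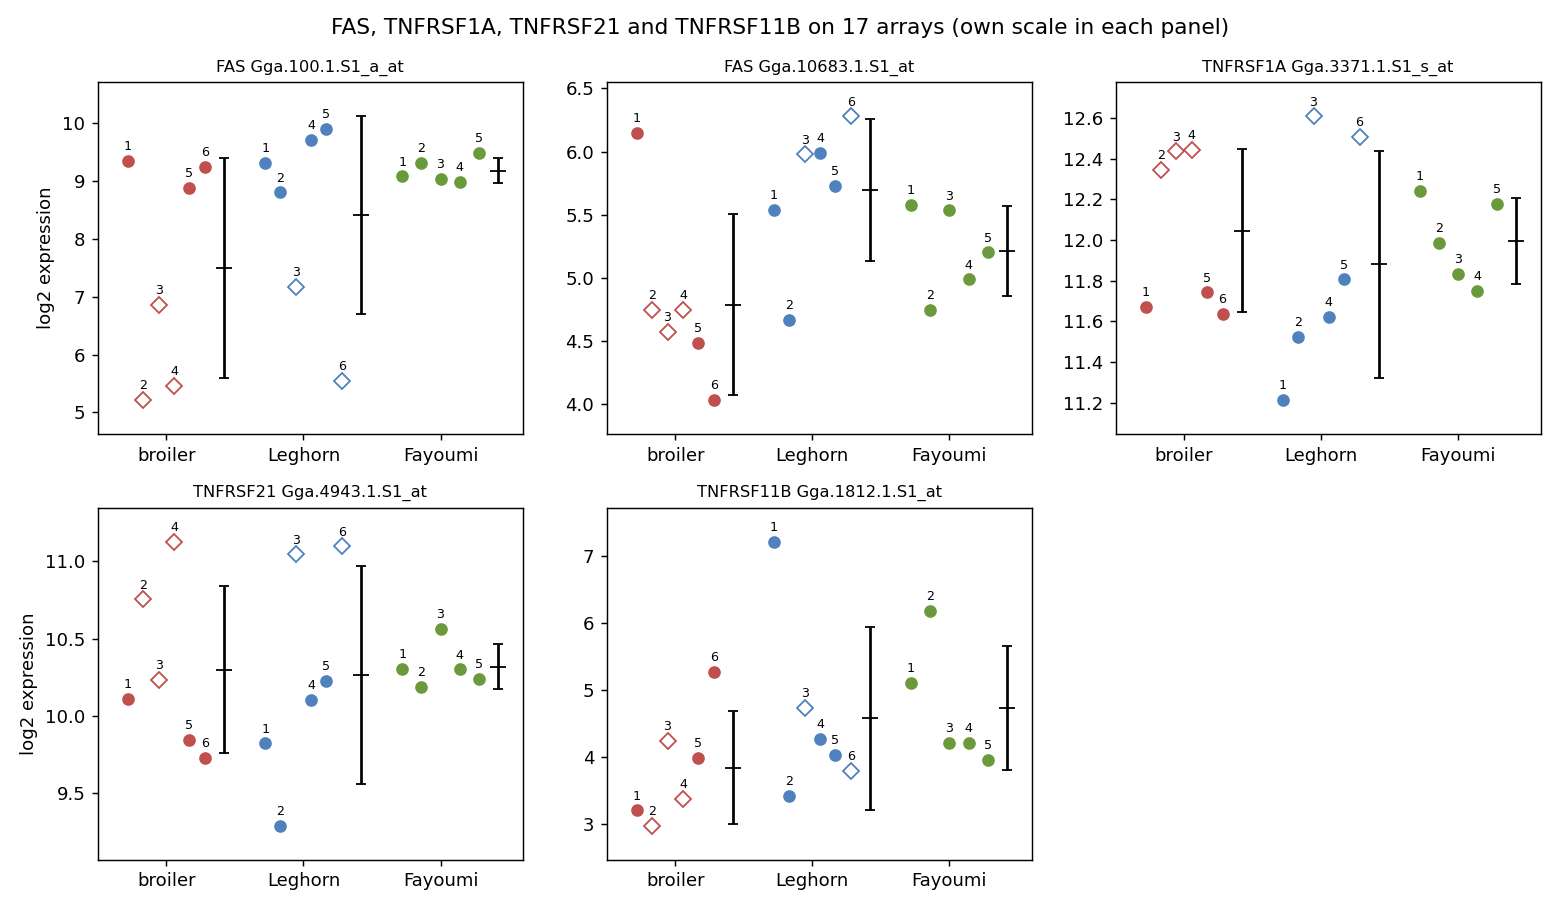
Log2 expression (vertical axis, own scale per panel) of FAS, TNFRSF1A, TNFRSF21 and TNFRSF11B on each array, with array labels as numbers, open diamonds for the 5 arrays that stood apart and bars for mean ± SD. FAS S1_a_at is low at the open diamonds in both broiler and Leghorn, while at FAS S1_at broiler 1 stands at 6.15 with the Leghorn arrays and Leghorn 2 at 4.67 with the broiler arrays.

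Among all 9 probe sets, 4 had no overlap between the 5 arrays that stood apart and the other 12, where 12.5% of all chicken probe sets did. Every member except TNFRSF1B S1_at was above background on all arrays, against 51.3% of all chicken probe sets. The 12.5% therefore also covers probe sets near the lowest value and is not a share at like levels. The 4 were TNFRSF1B S2_s_at, TNFRSF1B GgaAffx S1_at and FAS S1_a_at, lower on the 5, and TNFRSF1A, higher on them. Marker lists moved with the same arrays. The summed level of 6 endothelial markers was 13.96 to 14.56 on the 5 and 14.52 to 15.28 on the 12, and that of 3 general leukocyte markers 11.94 to 12.83 and 11.49 to 12.25. The 9 macrophage markers were at 15.56 to 15.98 on the 5 and at 15.18 to 15.82 on the 12. ACTB probe sets at the 3' end exceeded those at the 5' end by 1.49 to 1.92 on the 5 and 1.91 to 2.70 on the 12. This excess grows as RNA integrity falls. The 8 adipocyte markers summed to 16.65 to 17.02 on the 5. They were at 16.52 on Leghorn 1 and at 17.1 or 17.2 on the rest of the 12. The part of adipocytes, endothelium, leukocytes or RNA integrity in the receptor levels was not tested. Between lines, the leukocyte and macrophage lists overlapped. Macrophage sums were 15.62 to 15.82 in Fayoumi, 15.18 to 15.98 in Leghorn and 15.48 to 15.87 in broiler. The sum of 5 B lymphocyte markers was 7.58 to 8.01 in Fayoumi, 7.95 to 8.77 in broiler and 7.89 to 9.43 in Leghorn, where only the array labelled Leghorn 2 lay within the Fayoumi range. The 8 T lymphocyte markers, of which LCK was on no array above background, summed to 10.16 to 10.82, 9.87 to 11.37 and 10.30 to 11.82 in these lines, and 3 erythrocyte markers to 13.46 to 14.33, 12.84 to 14.36 and 12.51 to 14.35. The part of macrophages, lymphocytes, other leukocytes or erythrocytes in the TNFRSF1B values was not tested.

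Counted over all members, limma called 1 of the 9 probe sets in Fayoumi against broiler, the TNFRSF1B probe set that led to the choice of the genes, where 0.714% of all chicken probe sets were called. Because that difference chose the genes, nothing is read from this count. In Leghorn against broiler limma called 0 of 9 as labelled, where the share over all chicken probe sets was also 0%, and 2 of the 9 had an unadjusted p under 0.05, against 4.88%. None of the 9 was free of overlap between these lines, against 0.0186% of all. Without the arrays labelled broiler 1 and Leghorn 2 it called 2 of 9, TNFRSF1B S1_at and FAS S1_at, where 1.75% of all were called. Both were also the only members without overlap between the remaining arrays of those lines, against 2.44% of all chicken probe sets. In Fayoumi against Leghorn 0 of 9 were called by limma, 0 had an unadjusted p under 0.05, and the shares over all were 0.626% and 7.4%. Without the 5 arrays that stood apart limma called 0 of 9 in Fayoumi against broiler, 0 in Leghorn against broiler and 0 in Fayoumi against Leghorn, where 0.504%, 0.00265% and 1.05% of all were called. Without those 5 and the arrays labelled broiler 1 and Leghorn 2 the counts were 2, 2 and 0 of 9, where 2.09%, 1.97% and 2.53% were called. The 3 comparisons share their arrays, so these counts are not independent of each other. Every count against broiler uses broiler arrays that entered the choice of TNFRSF1B. Nothing is read from the TNFRSF1B calls in those counts.

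**Figure D4:**
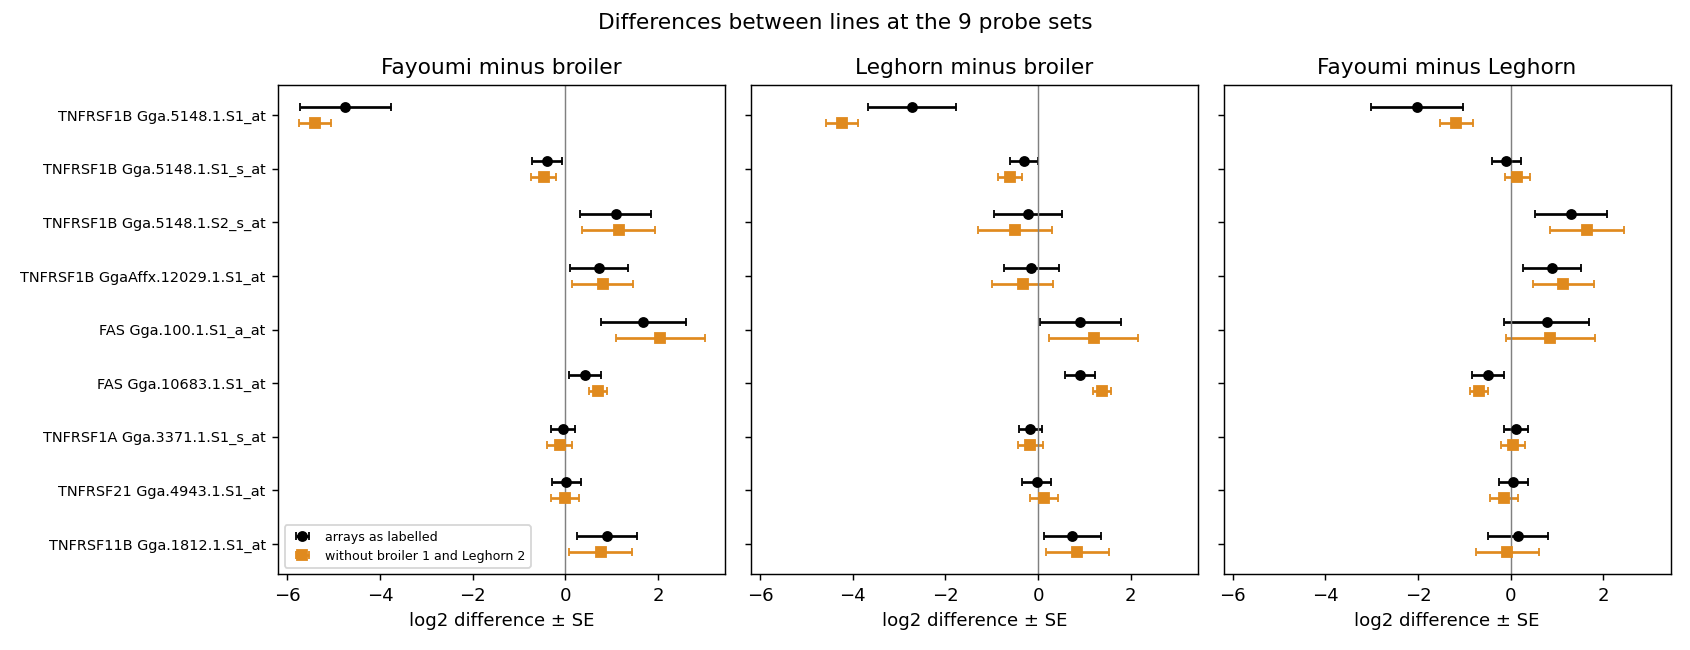
Log2 difference ± SE (horizontal axis) of the 9 probe sets in the 3 comparisons, with all arrays as labelled in black and without the arrays labelled broiler 1 and Leghorn 2 in orange. Leaving out these arrays moves TNFRSF1B S1_at from -2.72 to -4.23 and FAS S1_at from 0.91 to 1.39 in Leghorn minus broiler and narrows both errors.

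With the arrays as labelled, genes that act with these receptors were called at a rate near that of all chicken probe sets. Of 115 genes listed as ligands, other receptors of the family, adaptors, NF-kappaB components, caspases and TNF-induced genes, 86 were measured by 171 probe sets, and 139 of these were above background on at least 1 array. Limma called 1 of the 171 in Fayoumi against broiler, 0 in Leghorn against broiler and 1 in Fayoumi against Leghorn, where 0.714%, 0% and 0.626% of all were called. At an unadjusted p under 0.05 the counts were 26, 13 and 13, or 15.2%, 7.6% and 7.6% of the 171, where 10.2%, 4.88% and 7.4% of all chicken probe sets were. The median difference over the lists and over all chicken probe sets was 0.00 in each comparison. The called probe set was that of SOD2, the mitochondrial superoxide dismutase that NF-kappaB induces in mammals, in both comparisons. It fell by 0.53 on the log2 scale in Fayoumi against broiler (SE 0.08, limma, adjusted p = 0.00497), from 13.06 ± 0.08 to 12.53 ± 0.08. Against Leghorn, at 13.00 ± 0.20, it fell by 0.47 (SE 0.08, limma, adjusted p = 0.0128). All 5 Fayoumi arrays lay below all broiler and all Leghorn arrays at SOD2, and the share over all chicken probe sets for this is not given. The SOD2 call against broiler was lost without the 5 arrays that stood apart (limma, adjusted p = 0.0640, with 2.72e-05 to 0.0640 over the alternatives). It was also lost without those 5 and the 2 arrays against their labels, and with a replicate block. Its call against Leghorn was lost without those 5 and 2 arrays, with only the arrays of both lines and with a replicate block (limma, adjusted p from 0.00016 to 0.109 over the alternatives).

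Of 13 genes listed as ligands and sheddase, 9 were measured, and none of these was called in any comparison. TNF, LTA, LTB and FASLG had no probe set under these symbols. The levels of TNF and FAS ligand are therefore not known here. TNFSF10, the ligand TRAIL that TNFRSF11B binds, had a mean of 10.07 in Fayoumi, 9.87 in Leghorn and 10.36 in broiler at its brightest probe set, and the TNFSF11 probe set stayed near background with means of 2.26 to 2.29. TNFSF10 and TNFSF11 are named for their link to TNFRSF11B, a choice made after their values were seen. ADAM17, the protease that releases TNF and its receptors from the cell surface, was at 8.08 ± 0.04 in Fayoumi and 8.51 ± 0.35 in broiler (limma, adjusted p = 0.471).

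Among other receptors, TNFRSF9, a costimulator of T lymphocytes, was at 5.52 ± 0.09 in Fayoumi, 5.66 ± 0.22 in Leghorn and 5.01 ± 0.43 in broiler at its brightest probe set. Neither difference from broiler passed as labelled, and both did without the arrays labelled broiler 1 and Leghorn 2, at 0.66 in Fayoumi (limma, adjusted p = 0.00873) and 0.86 in Leghorn (limma, adjusted p = 0.00144). Neither passed without the 5 arrays that stood apart (limma, adjusted p = 0.969 in Fayoumi). The other 2 probe sets of TNFRSF9 were not called as labelled. BIRC2, a ubiquitin ligase that TRAF2 brings to TNF receptors, was at 10.02 ± 0.17 in Fayoumi, 9.26 ± 0.49 in Leghorn and 8.50 ± 0.78 in broiler at its brightest probe set. Fayoumi minus broiler was 1.52 there (SE 0.33) and missed the threshold as labelled (limma, adjusted p = 0.0546), whereas without these 2 arrays it was 1.78 (limma, adjusted p = 0.00275). This BIRC2 difference did not pass when the 5 that stood apart were dropped instead (limma, adjusted p = 0.359). The other 2 BIRC2 probe sets differed by 0.04 and 0.23 between Fayoumi and broiler, and the brighter of these by -0.58 between Fayoumi and Leghorn, with no call. RIPK3, a kinase of necroptosis in mammals, was at 7.83 ± 0.22 in Fayoumi and 6.29 ± 0.66 in Leghorn at its brightest probe set (limma, adjusted p = 0.0535, and adjusted p = 0.0108 without the 2). IKBKB, the kinase that releases NF-kappaB from its inhibitor, was at 9.25 ± 0.11 in Fayoumi and 8.94 ± 0.15 in Leghorn (limma, adjusted p = 0.0992, and adjusted p = 0.0446 without the 2). Without the 5 arrays that stood apart RIPK3 and IKBKB did not pass (limma, adjusted p = 0.0573 and 0.318).

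Leaving out the arrays labelled broiler 1 and Leghorn 2 raised the calls among the 171 probe sets to 6, 4 and 4 in the 3 comparisons, where limma called 1.82%, 1.75% and 1.44% of all. In Fayoumi against broiler TNFRSF9, BIRC2 and the cytokine IL6, each at 1 of 3 probe sets, were then higher, and SOD2, FADD and CRADD lower. FADD, the adaptor that joins FAS to caspase 8, differed by -1.49 (SE 0.26, limma, adjusted p = 0.0118) at 1 of its 3 probe sets, and CRADD, another death domain adaptor, by -1.19 (SE 0.26, limma, adjusted p = 0.0366). IL6 differed by 1.57 in Fayoumi (SE 0.20, limma, adjusted p = 0.00137) and by 1.13 in Leghorn (SE 0.20, limma, adjusted p = 0.0123). In Leghorn against broiler IL6, LITAF, BIRC2 and TNFRSF9 were then higher, with LITAF by 2.30 (SE 0.53, limma, adjusted p = 0.0491) at 1 of its probe sets. In Fayoumi against Leghorn RIPK3, at 2 probe sets, and IKBKB were then higher and SOD2 lower. Without the 5 arrays that stood apart limma called 0 of the 171 in Fayoumi against broiler, where 0.504% of all were called. FADD, CRADD, IL6 and LITAF were named after their values were seen.

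**Figure D5:**
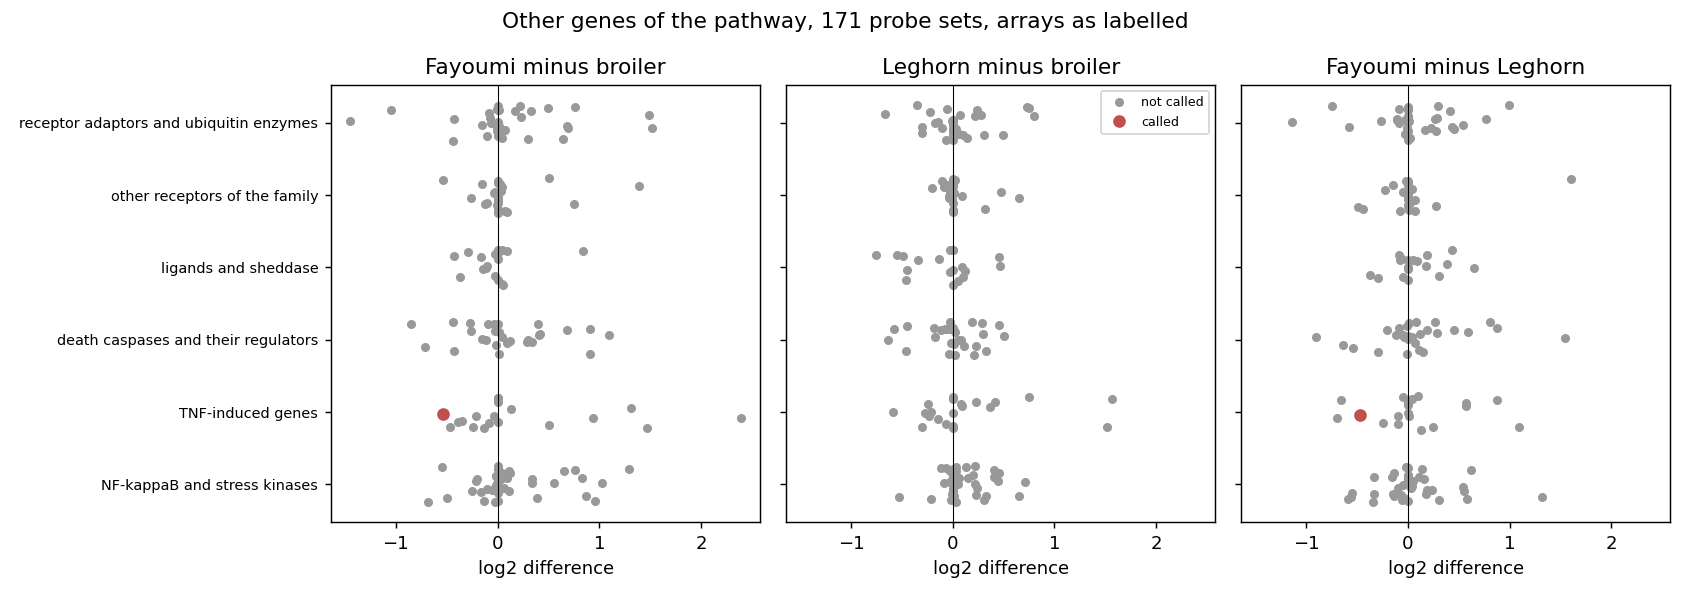
Log2 differences (horizontal axis) of 171 probe sets of the pathway lists (vertical axis, 1 point per probe set, spread vertically at random) in the 3 comparisons with the arrays as labelled. The 1 called probe set, SOD2, is drawn in red at -0.53 in Fayoumi minus broiler and -0.47 in Fayoumi minus Leghorn.

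The probe sets most like TNFRSF1B S1_at over the 17 arrays were those of SLC4A1AP, STON1, CDC14A, METTL5 and STARD4, with Pearson's r of 0.950, 0.940, 0.937, 0.932 and 0.926. These correlations describe points that share lines and arrays. SLC4A1AP was at the lowest value of the table, 2.26, on every Fayoumi array, on the array labelled broiler 1 and on all Leghorn arrays other than Leghorn 2, which had 6.78, while the other broiler arrays were at 5.83 or above. METTL5, part of an RNA methyltransferase, was at 3.71 to 4.29 in Fayoumi, at 4.16 on broiler 1 and at 7.63 on Leghorn 2, with the other broiler arrays at 6.29 or above and the other Leghorn arrays at 4.71 or below. STON1, an endocytosis adaptor, had the same split at higher levels, with medians of 8.17 in Fayoumi, 8.74 in Leghorn and 9.74 in broiler. Against the same probe set, r was 0.720 for S1_s_at, 0.0084 for S2_s_at and 0.0307 for GgaAffx S1_at, all of TNFRSF1B itself, and -0.678 for FAS S1_at.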

How the data were processed

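Expression was deposited by the authors as a log2 value for every probe set on every array. The submitters' processing notes list R 2.13.2 together with GCRMA and RMA, without roles, and the log2 scale was read from the deposited values, which run from 2.26 to 16.2. The lowest value makes up 37.1% of all values, so differences near it are compressed. A level counts as above background over 2.29, the level that 95% of the values of 80 control probe sets (reporter genes and Affymetrix blanks) do not exceed. Symbols come from the platform annotation, updated by gene number for 26851 of 27166 probe sets with 1 symbol. Sequences of the genes and probes were not used here.

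All 37693 chicken probe sets were fitted with limma 3.58.1 in R 4.3.3, with line as the only factor over 17 arrays and default eBayes. P-values are two-sided and adjusted by Benjamini-Hochberg over all of them for each comparison, with a threshold of 0.05, and the procedure was tested on simulated data. The number of arrays limits the precision. Alternatives left out arrays, added a state covariate or a replicate block, or changed the variance model, weights, normalization or filter. Genes named are all members, the 5 probe sets with the highest r to the TNFRSF1B probe set of widest range, and per pathway list up to 3 called probe sets or else the 1 with the smallest adjusted p. Members, lists and alternatives were chosen with earlier results of these data known. Replicate numbers were checked for pairing, and same-numbered arrays correlated between -0.763 and 0.555.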

Additional observations from a re-analysis of the deposited data

Results flagged for a closer look

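In 5 of 27 groups of values (9 probe sets in 3 lines) 1 array lay far from the rest of its line by Dixon's ratio of gap to range, where chance gives about 1 group in 20. At TNFRSF1B S1_at the array labelled broiler 1 had 3.97, below a range of 7.32 to 8.71 for the remaining broiler arrays. The array labelled Leghorn 2 had 8.78, above a range of 2.69 to 4.51 for the remaining Leghorn arrays. At FAS S1_at the array labelled broiler 1 was at 6.15 against 4.03 to 4.75. These 2 arrays also lay with the other line over the probe sets, members left out, that separate the remaining broiler and Leghorn arrays. At TNFRSF1B S1_s_at the array labelled Fayoumi 1 was at 6.36 against 6.65 to 6.71, and at TNFRSF11B the array labelled Leghorn 1 was at 7.21 against 3.42 to 4.74.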

How the results depend on the processing

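With the arrays as labelled, the member count in Fayoumi against broiler was 1, in a range of 0 to 1 when single arrays were left out: the call held only without broiler 1 or Leghorn 1, 2 or 6 and was lost without any other single array, while the difference stayed between -5.41 and -4.46. That probe set led to the choice of the genes, so its calls bear on nothing else. The count became 0 without the 5 arrays that stood apart, with their state as a covariate and with the replicate block, and 2 without those 5 and the 2 arrays against their labels (broiler 1, Leghorn 2). The count in Leghorn against broiler was 0 and became 2 without these 2 arrays, with or without the other 5. The 2 were TNFRSF1B S1_at and FAS S1_at in the first case and TNFRSF1B S1_at and S1_s_at in the second. The count of 0 in Fayoumi against Leghorn held in every alternative run. Pathway calls in Fayoumi against broiler were 1, in a range of 1 to 5 with single arrays left out, 6 without the 2, 0 without the 5, 5 without both sets, 2 with only the arrays of both lines, 0 with the replicate block, 9 with array weights and 4 with the filter on low values. In Leghorn against broiler they were 0, in a range of 0 to 1, then 4 without the 2 and 5 without both sets. In Fayoumi against Leghorn they were 1, in a range of 1 to 4, then 4 without the 2 and also without both sets, 0 with only both lines' arrays and with the replicate block, 6 with array weights, and 2 with quantile normalization and with the filter. For alternatives other than leaving out the 2, the 5 or both sets, the share called over all chicken probe sets is not given. Nothing is read from the pathway counts in those alternatives. Whether the replicate numbers pair the samples is not settled, because the arrays that stood apart also enter the correlations between same-numbered arrays.

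Differences that had not passed changed sign in these alternatives. TNFRSF1B S1_s_at in Fayoumi against Leghorn was 0.14 without the 2 and without Leghorn 2 alone. In Fayoumi against broiler, without the 5, without both sets, with the covariate and with array weights in turn, S2_s_at was -0.11, -0.55, -0.19 and -0.11, GgaAffx S1_at -0.34, -0.71, -0.29 and -0.31, and TNFRSF1A 0.31, 0.31, 0.38 and 0.18. TNFRSF21 there ranged from -0.09 to 0.19 and TNFRSF1A from -0.13 to 0.03 with single arrays left out, and TNFRSF21 was -0.018 without the 2 and -0.0031 with quantile normalization. Over all alternatives TNFRSF21 in Fayoumi against broiler reached 0.53. FAS S1_a_at in Fayoumi against Leghorn was -0.25 without the 5, -0.46 without both sets, -0.29 with the covariate and -0.33 with array weights. TNFRSF21 in Leghorn against broiler was 0.12 without the 2, 0.26 without both sets, 0.13 with the covariate and 0.17 with array weights, and in Fayoumi against Leghorn -0.14 without the 2. TNFRSF11B was -0.079 in Leghorn against broiler with array weights, and in Fayoumi against Leghorn -0.0761 without the 2, -0.0016 without the 5, -0.44 without both sets and -0.0296 with the covariate. With single arrays left out, Leghorn against broiler ranged from -0.59 to 0.29 at TNFRSF1B S2_s_at, -0.47 to 0.26 at GgaAffx S1_at and -0.20 to 0.16 at TNFRSF21, and Fayoumi against Leghorn from -0.0162 to 0.26 at TNFRSF1A, -0.14 to 0.22 at TNFRSF21 and -0.21 to 0.68 at TNFRSF11B. The causes were not tested.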

Other observations

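The 5 protein-coding genes on either side of each member were taken from the RefSeq gene order of assembly bGalGal1.mat.broiler.GRCg7b, a choice made after the data were seen. Next to TNFRSF1B lie VPS13D and TNFRSF8, a relative in the same receptor family, followed by MIIP, MFN2 and PLOD1. Limma called 0 of the 15 probe sets on the 8 measured neighbours of TNFRSF1B in any of the 3 comparisons, with a smallest adjusted p of 0.484. Over all chicken probe sets 0.714% were called in Fayoumi against broiler, 0% in Leghorn against broiler and 0.626% in Fayoumi against Leghorn. Most of the 15 had means close to the lowest value of the table, where differences are compressed. Nothing is therefore read from this count. VPS13D was at a mean of 9.45 in Fayoumi, 9.18 in Leghorn and 9.30 in broiler at its brightest probe set, and PLOD1, a collagen lysyl hydroxylase, at 9.25, 9.31 and 9.40. TNFRSF8 had means of 2.26, 2.26 and 2.30, at or next to background. The neighbours of FAS, TNFRSF1A, TNFRSF21 and TNFRSF11B gave 0 calls as well, over 21, 15, 12 and 20 probe sets, with a smallest adjusted p of 0.165 among them. The same shares over all chicken probe sets apply, and nothing is read from these counts either.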
